A study of Homo sapiens with 4 samples.

Results

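Granins are acidic proteins stored with peptide hormones in the dense-core granules of endocrine cells and neurons. The enzymes that travel with them turn inactive prohormones into active peptides in a fixed order: a proprotein convertase cuts at pairs of basic residues, carboxypeptidase E trims the basic residues left behind, and peptidylglycine alpha-amidating monooxygenase (PAM) amidates the exposed end. Expression of 10 genes of this system was examined in ES2 cells, out of 23228 genes listed in the count tables. All 10 were found by symbol: the granins and granin-like proteins SCG2, SCG3, SCG5, CHGA, CHGB and VGF, the convertases PCSK1 and PCSK2, CPE, and PAM. They were picked as a family with the Liq response of these same samples already known, so their differences are given as a description and no p-value is printed for them.

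ES2 cells are a long-established line from a human ovarian cancer, grown here in medium without phenol red and with charcoal-treated serum. Cells received vehicle or Liq (liquiritigenin, a plant flavanone used by the study as an ERβ agonist) at 100 μM for 24 h, and RNA of each condition was sequenced as 2 samples. All 4 samples come from this single line, and the labels do not say whether the 2 samples of a condition were separate cultures. The SD values below measure the spread between these samples. The SE values come from the fit, which also draws on the spread shared across genes. Neither is known to cover the spread between separate cultures. Each sample had between 34573053 and 48933893 reads on genes. A count of 0 allows up to 3 counts. This bound was 0.0613 to 0.0868 CPM (counts scaled to library size, here without the TMM scaling of the other CPM values). It covers counting error only. The 2 samples of a condition differed by more than sampling noise (chi-square per degree of freedom 6.33 for vehicle and 11.1 for Liq), and samples of different conditions differed by 58.4 to 71.4. Of 12 ovarian and epithelial markers, KRT7, KRT8 and KRT18 had at least 871 counts in every sample, whereas EPCAM and CDH1 had at most 3. Of the 6 tested, 0 rose and 2 fell with Liq (edgeR, and 2 by DESeq2), namely PAX8 and WT1, beside 2.16% of all tested genes called lower. WT1 lost its call without vehicle replicate 2. ESR2, which encodes ERβ, had 4 and 7 counts in vehicle and 5 and 14 in Liq.

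Of the 10 genes, 8 passed the filter on low counts and 2 were silent. SCG5 was about 5 times lower with Liq and SCG2 was higher, while the other 6 measured genes differed by less than 1.5-fold. With 1.5-fold as the smallest change and 0.05 as the limit of the adjusted p-value (Benjamini-Hochberg, edgeR's quasi-likelihood test over all genes), 1 member was called higher and 1 lower, beside 4.29% of all 13546 tested genes called higher and 2.16% called lower. Nothing is read from that count, because the same contrast chose the members. With offsets that follow the expression level (loess), the calls over all genes moved from 581 higher and 293 lower to 354 and 394, a change in the higher share from 66.5% to 47.3%. Most of these genes are weakly expressed, and 6 of the 8 had a vehicle mean under 10 CPM. Among all 4085 tested genes of that level the median log2 fold change was 0.18, and it was 0.03 with loess offsets. Of the genes of that level 12.2% were called higher and 3.5% lower.

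**Figure D1:**
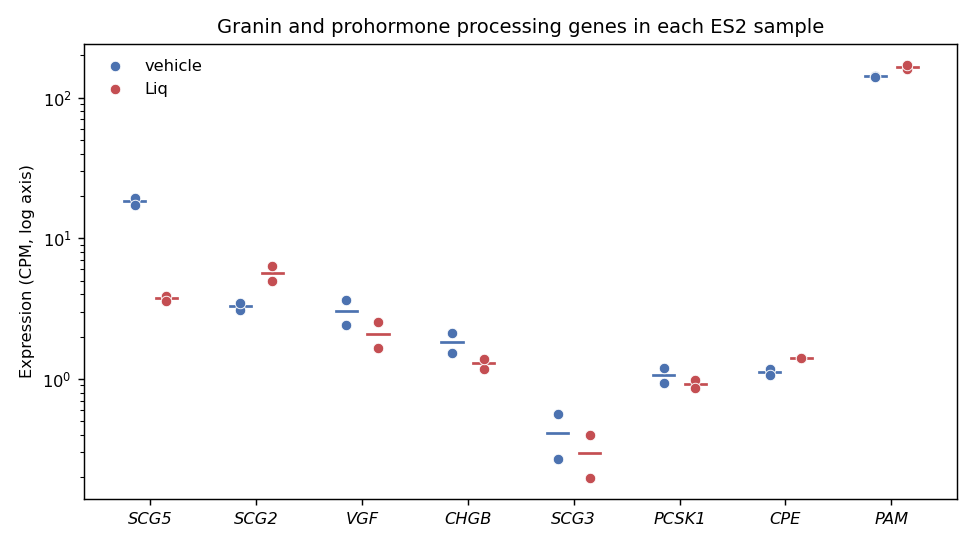
Expression of the 8 detected genes in each sample, in CPM (counts scaled by TMM to library size) on a log axis. Points are samples and bars are means of 2 samples. The SCG5 points lie at 17.3 and 19.2 CPM in vehicle and at 3.59 and 3.91 CPM in Liq, far apart compared with the spread inside each pair.

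SCG5 encodes a small secretory chaperone that binds the precursor of PCSK2 and keeps it inactive until it reaches the granule. It had 791 and 649 reads under vehicle, but 139 and 180 under Liq. Scaled to the libraries, this was 19.2 and 17.3 CPM against 3.91 and 3.59 CPM. Both Liq samples were below both vehicle samples with a wide gap. The mean went from 18.3 ± 1.3 CPM to 3.75 ± 0.23 CPM (SD, n = 2), so that 20.5% of the vehicle level was left. The log2 fold change was -2.29 (SE 0.12), and it ranged from -2.38 to -2.21 in 11 alternative fits. Because RNA was taken from a whole culture, fewer cells expressing a gene and less of its RNA per cell cannot be told apart.

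SCG5 lies on chromosome 15 from 32933877 to 32989299 on the plus strand (GRCh37, GENCODE annotation). Its canonical transcript has 6 exons and 1198 bases. A read-through gene, ARHGAP11A-SCG5, and an antisense RNA, SCG5-AS1, share exonic sequence with it and have no row of their own in the tables. The strand setting of the counting is not given in the sources used here, so reads from the antisense RNA cannot be told apart from those of SCG5. ARHGAP11A, which starts the read-through and ends 1734 bases before SCG5, was not called, with 131.1 ± 8.8 CPM in vehicle against 120.8 ± 12.1 CPM in Liq (SD, n = 2). Beyond SCG5, GREM1, a secreted BMP antagonist, was near the limit of detection with 8 and 10 reads in vehicle and 5 and 3 in Liq. FMN1, a formin, was not called either, at 125.7 ± 3.2 CPM and 108.1 ± 13.0 CPM (SD, n = 2). Over all 10 genes the nearest tested neighbours on both sides, a rule chosen after the data had been seen, numbered 20. Of these 1 was called higher and 0 lower (5% against 6.45% of all tested genes by edgeR). The 1 neighbour called was KCNE4, a potassium channel subunit 398540 bases from SCG2, with 90 and 62 reads in vehicle and 104 and 178 in Liq (log2 fold change 0.76, SE 0.19). It lost its call with the DESeq2 Wald test and without vehicle replicate 2.

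SCG2 encodes secretogranin II, the precursor of the neuropeptide secretoneurin, and went the other way. Its reads numbered 128 and 130 in vehicle and 178 and 319 in Liq. This was 3.11 and 3.47 CPM against 5.01 and 6.36 CPM, with both Liq samples above both vehicle samples. The mean was 1.73-fold higher, going from 3.29 ± 0.25 CPM to 5.68 ± 0.95 CPM (SD, n = 2), and the log2 fold change was 0.80 (SE 0.15). The Liq samples stood further apart than the vehicle samples, and without Liq replicate 2 the log2 fold change was 0.61. SCG2 is a gene of 2 exons on chromosome 2 from 224461658 to 224467079, on the minus strand.

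The ratio of reads between both genes differed between the conditions. In vehicle, SCG5 reads were 6.18 and 4.99 times as many as SCG2 reads, and in Liq 0.78 and 0.56 times as many. This ratio is of reads and not of transcripts, since the SCG2 transcript is the longer one, and per kilobase SCG5 was above SCG2 in both conditions. Summed over the 6 granins the level was 27.8 and 25.9 CPM in vehicle and 12.8 and 13.4 CPM in Liq. Without SCG5 the sum was 8.54 and 8.57 CPM in vehicle and 8.91 and 9.80 CPM in Liq. Without SCG5 and SCG2, the lower and the higher member, it was 5.42 and 5.10 CPM in vehicle and 3.91 and 3.45 CPM in Liq.

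VGF, a granin-like precursor of several neuropeptides, was found at 149 and 91 reads in vehicle and 90 and 83 in Liq. In CPM the vehicle samples were 3.62 and 2.43 and the Liq samples 2.53 and 1.65. The groups overlapped, since Liq replicate 1 was above vehicle replicate 2. The log2 fold change was -0.57 (SE 0.21). Over 11 alternative fits it ranged from -0.88 without Liq replicate 1 to -0.25, and it was -0.82 without vehicle replicate 2. With loess offsets it was -0.75 and VGF was called lower, which it was not in the main fit.

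CHGB, or secretogranin I, a matrix protein of the granule core, had 63 and 79 reads in vehicle and 42 and 70 in Liq. These were 1.53 and 2.11 CPM against 1.18 and 1.39 CPM, both Liq samples being lower, although by less than the distance between the vehicle samples. The log2 fold change of -0.48 (SE 0.23) became -0.67 with loess offsets, and only then was CHGB called lower. SCG3, which links the granule core to its membrane, was barely detected, with 11 and 21 reads in vehicle and 7 and 20 in Liq. Its values in the 2 conditions overlapped (0.27 and 0.56 CPM against 0.20 and 0.40 CPM), and its direction turned without vehicle replicate 2, from -0.38 (SE 0.46) to 0.22 on the log2 scale. No difference of SCG3 was detectable at this depth.

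CHGA, the chromogranin that pathologists stain as a neuroendocrine marker, had 0 reads in each of the 4 samples. PCSK2, the convertase that depends on the SCG5 chaperone, also had 0 reads in each sample. For both genes a count of 0 allows up to 3 counts, that is 0.0613 to 0.0868 CPM without TMM scaling, depending on the sample. ES2 cells thus had reads of SCG5 but no detected read of the enzyme it serves.

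The other convertase, PCSK1, which makes the first cuts in many prohormones, was detected at 49 and 35 reads in vehicle and 35 and 43 in Liq. Its values overlapped, at 1.19 and 0.93 CPM against 0.98 and 0.86 CPM (log2 fold change -0.23, SE 0.27). CPE, the carboxypeptidase of the granule, had 48 and 40 reads in vehicle and 50 and 71 in Liq. The 2 Liq samples of CPE (1.41 CPM in each) were above the 2 vehicle samples (1.17 and 1.07 CPM), with a log2 fold change of 0.33 (SE 0.24) that fell to 0.13 with loess offsets.

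PAM, a copper-dependent enzyme that also works outside endocrine cells, was by far the most abundant member. It had 5900 and 5260 reads in vehicle and 5711 and 8610 in Liq, and supplied 82.6% to 83.4% of all reads of the 10 genes in vehicle and 91.3% to 91.6% in Liq. In CPM the samples were 143.5 and 140.5 in vehicle and 160.6 and 171.6 in Liq. Both Liq samples were higher, by a mean of 1.17-fold (log2 fold change 0.23, SE 0.07), which is under the fold threshold. Of the 8 tested members 5 did not overlap between conditions: SCG2, CPE and PAM were higher and SCG5 and CHGB lower with Liq. Among all tested genes 61.7% did not overlap, 31.5% with Liq higher and 30.2% with Liq lower, and nothing is read from the count of members.

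**Figure D2:**
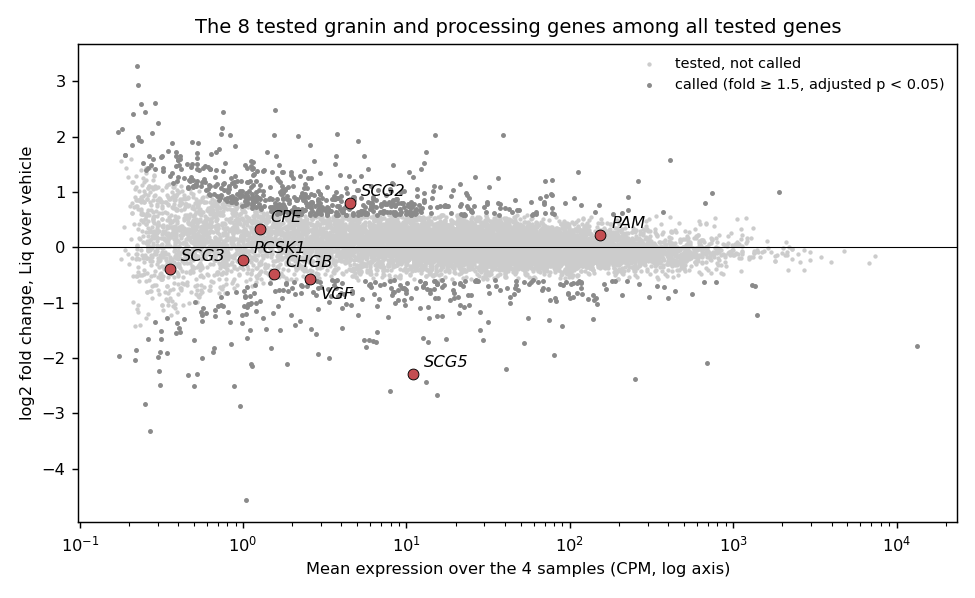
Log2 fold change of Liq over vehicle against mean expression over the 4 samples (CPM, log axis) for all 13546 tested genes. Each grey point is a gene, dark grey where it was called, and the 8 tested members are red and named. SCG5 at -2.29 lies among the lowest points of its expression level, while SCG3, PCSK1, CHGB, CPE and PAM lie inside the cloud of genes that were not called.

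Levels of different genes were compared per length, as CPM divided by the kilobases of the canonical transcript. In vehicle the order was PAM (35.6 ± 0.5), SCG5 (15.3 ± 1.1), SCG2 (1.35 ± 0.10), VGF (1.19 ± 0.33), CHGB (0.74 ± 0.17), CPE (0.43 ± 0.03), PCSK1 (0.21 ± 0.04) and SCG3 (0.13 ± 0.07 CPM per kb, SD, n = 2). SCG2 and VGF overlapped in this order, and the other detected neighbours did not. PAM was above 87.9% of 17442 genes with a known length, SCG5 above 75.2%, and the other 6 detected members above 36.9% to 46.6%. In Liq SCG5 was still second at 3.13 ± 0.19 CPM per kb, but SCG2 followed closely at 2.33 ± 0.39. CPE (0.546 ± 0.002) and CHGB (0.52 ± 0.06 CPM per kb) overlapped there.

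**Figure D3:**
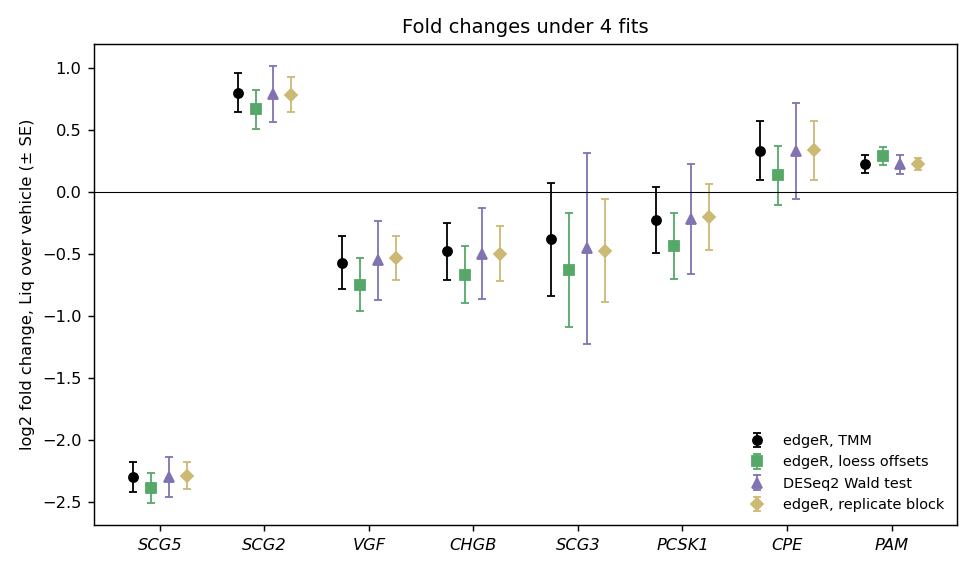
Log2 fold change of Liq over vehicle with its SE for each detected gene under 4 fits: edgeR with TMM factors, edgeR with loess offsets, the DESeq2 Wald test, and edgeR with the replicate number as a block. SCG5 stays below -2.2 and SCG2 above 0.6 in all 4, and loess offsets shift the weakly expressed members downward.

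Promoters of granin genes are known for the cAMP response element (CRE), the palindrome TGACGTCA bound by CREB. RefSeq start sites were found for 8 of the 10 genes, SCG2 and CHGB excepted, and the 250 bases before each start were searched on both strands. The full element was present in PCSK1, VGF and CHGA, and in 1.65% of the 35116 promoters in the table. It ended 70, 72 and 47 bases before the start, respectively. The stretches that hold it are shown 5′ to 3′ on the strand of the gene with the element in capitals, together with the SCG5 stretch of the same length, because SCG5 differed most and holds no such element.
PCSK1: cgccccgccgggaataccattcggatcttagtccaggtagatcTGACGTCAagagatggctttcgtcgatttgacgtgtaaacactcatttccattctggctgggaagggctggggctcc
VGF: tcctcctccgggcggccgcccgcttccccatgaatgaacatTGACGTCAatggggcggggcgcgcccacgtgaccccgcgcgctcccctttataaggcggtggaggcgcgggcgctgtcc
CHGA: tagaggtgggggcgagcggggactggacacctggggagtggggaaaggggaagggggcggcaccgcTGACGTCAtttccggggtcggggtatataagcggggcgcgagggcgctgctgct
SCG5: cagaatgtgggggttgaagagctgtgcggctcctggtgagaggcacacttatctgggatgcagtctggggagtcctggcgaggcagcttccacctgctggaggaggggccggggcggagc

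The sequences are RefSeq promoters of GRCh38.p14 that were placed on GRCh37 by an exact match. PCSK1 is at chr5:95768953-95769072 on the minus strand, VGF at chr7:100808851-100808970 on the minus strand, CHGA at chr14:93389375-93389494 on the plus strand and SCG5 at chr15:32933757-32933876 on the plus strand. None of the 4 stretches overlaps an exon of its gene in the GENCODE annotation, although that of PCSK1 lies in an intron of a longer PCSK1 transcript. The SCG5 stretch ends 35 bases before the RefSeq start, where the GENCODE gene begins, and the others end at the base before it. The shorter CRE core TGACG, which is part of the full element, occurred in 21.2% of all promoters, and among the members in PCSK1, VGF, CHGA, SCG5, PCSK2 and CPE. In SCG5 it lay 17 to 13 bases before the RefSeq start, past the end of the stretch shown and inside the GENCODE gene. A match to TGACNNNGC, the core of the antioxidant response element bound by NRF2, was found in VGF alone (10.9% of all promoters). The AP-1 site TGANTCA (6.57% of all) and the palindromic estrogen response element (0.0399% of all) had no match in the 8 genes. The full CRE thus stood before 2 weakly expressed members, PCSK1 and VGF, and before CHGA, which had no read and could not be tested. A match is a description of the letters and does not show binding.

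The wider peptide hormone system was described with 9 lists of genes grouped by role, 319 genes in all. Of these, 143 passed the filter, and 9 rose and 10 fell by the same thresholds (13.3% against 6.45% of all tested genes, edgeR). The called share differed with the level, in a split at 10 CPM chosen after the values were seen. Of the 54 list genes with a vehicle mean under 10 CPM, 9 rose and 5 fell (25.9%, beside 15.7% of all tested genes of that level). Of the 89 at 10 CPM or more, 0 rose and 5 fell by edgeR (5.62% beside 2.44%). In the 11 alternative fits all 19 kept their direction, though some lost their call, as RAB3C did with the DESeq2 Wald test. The 19 were picked by their call and these fits reuse the same samples, so the kept direction is no added support.

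Precursors of hormones and neuropeptides were mostly absent from ES2 cells. Of 77 precursor genes, 42 had no read in any sample and 22 were under the filter. Among the 13 tested, 1 rose and 5 fell (46.2% against 6.45%, and 4 of the 10 under 10 CPM in vehicle against 15.7%), with a median log2 fold change of -0.13 against 0.01 for all tested genes. APLN, the precursor of the vascular peptide apelin, had 456 and 368 reads in vehicle and 220 and 293 in Liq and fell by 0.80 in log2 terms (SE 0.12, adjusted p = 2.239e-05, edgeR). PTHLH, the parathyroid hormone-like peptide of tumor hypercalcemia, had 112 and 86 reads in vehicle and 47 and 83 in Liq (log2 fold change -0.74, SE 0.21). KISS1, the kisspeptin precursor first known as a metastasis suppressor, had 28 and 17 reads against 7 and 12, and UCN2, which encodes urocortin 2, had 38 and 27 against 12 and 19. In all 4 genes both Liq samples were below both vehicle samples, as in 30.2% of all tested genes. Nothing is read from this, because the 4 were named for being called lower in the same samples. EDN1, the endothelin precursor, was the fifth, with a log2 fold change of -0.64, and is named outside the naming rule after its values were seen. By the DESeq2 Wald test 2 of the precursors fell and 0 rose, with PTHLH, KISS1 and UCN2 not called. With loess offsets 5 fell and 0 rose. Without vehicle replicate 1 the numbers were again 2 and 0, and without Liq replicate 1 they were 4 and 0, with KISS1 not called.

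Some of the other processing enzymes were called. Of 12 tested convertases, related proteases and inhibitors, 1 rose and 1 fell (16.7% against 6.45% of all tested genes, edgeR). Under 10 CPM in vehicle, 1 of 3 was called (33.3% beside 15.7% of all tested genes of that level). At 10 CPM or more it was 1 of 9 (11.1% beside 2.44%). FURIN, the convertase of the constitutive secretory route that most cells use, was not called, with 72.9 ± 5.9 CPM under vehicle against 69.2 ± 5.9 CPM under Liq (SD, n = 2), and neither was PCSK7 (27.6 ± 0.8 and 25.4 ± 1.7 CPM). PCSK5 and PCSK6 had at most 3 reads in a sample, as did PCSK1N, the precursor of the PCSK1 inhibitor proSAAS. PCSK4, a convertase known from germ cells, rose from 60 and 54 reads to 154 and 138 (log2 fold change 1.26, SE 0.21, adjusted p = 9.943e-05, edgeR). Scaled to the libraries, this was 1.46 and 1.44 CPM against 4.33 and 2.75 CPM, so its Liq samples stood apart. SERPINB8, a serpin that can inhibit furin, fell from 124.9 ± 0.7 to 69.9 ± 1.9 CPM (SD, n = 2).

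Among 15 tested carboxypeptidases and peptide-finishing genes, 0 rose and 2 fell by edgeR (13.3% against 6.45% of all tested genes), and DESeq2 called 2. By edgeR, 2 of the 12 at 10 CPM or more in vehicle were called (16.7% beside 2.44% of all tested genes of that level). Of the 3 under 10 CPM, 0 were called (beside 15.7%). QPCT, which forms the pyroglutamate end of several peptides, fell from 24.94 ± 0.10 to 14.1 ± 1.3 CPM (SD, n = 2; log2 fold change -0.82, SE 0.10, adjusted p = 9.307e-07, edgeR). CPM, a carboxypeptidase anchored at the cell surface, fell from 12.4 ± 0.3 to 7.31 ± 0.31 in the same unit (SD, n = 2). CPD, the carboxypeptidase of the trans-Golgi network, had 89.6 ± 2.0 against 106.8 ± 11.3 in that unit (SD, n = 2) and a log2 fold change of 0.26, under the fold threshold. Of 14 tested peptidases that degrade secreted peptides, 0 were called by edgeR or DESeq2. At an adjusted p-value under 0.05 with no fold threshold (edgeR), 0 were higher and 1 lower, beside 12.6% and 11.3% of all tested genes.

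The machinery that docks and releases dense-core granules was largely present, with 41 of 62 genes tested. Of these, 4 rose and 1 fell (12.2%), and the median log2 fold change was 0.09. These 5 were among the 21 genes with a vehicle mean under 10 CPM (23.8% beside 15.7% of all tested genes of that level). SNAP25, a SNARE protein of regulated exocytosis, rose from 9.34 ± 0.52 to 15.4 ± 0.7 CPM (SD, n = 2; log2 fold change 0.72, SE 0.11, adjusted p = 2.051e-05, edgeR). RAB3C, a granule GTPase, had 22 and 21 reads in vehicle and 54 and 53 in Liq (0.54 and 0.56 CPM against 1.52 and 1.06 CPM). RPH3AL, a Rab effector, had 22 and 19 reads against 40 and 53. CADPS, which primes granules for release, had 69 and 71 against 91 and 143. PTPRN2, a membrane protein of the granule itself, fell from 85 and 81 reads to 29 and 51 (log2 fold change -1.18, SE 0.23, adjusted p = 0.0004626, edgeR). Only 1 of the 4 increases, that of SNAP25, was called by DESeq2 as well, and RPH3AL and CADPS were each lost in the edgeR fits without vehicle replicate 1 and without vehicle replicate 2, CADPS also without Liq replicate 2 and with loess offsets.

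Of 17 tested peptide hormone receptors, 3 rose and 1 fell (23.5%). These 4 were among the 11 with a vehicle mean under 10 CPM (36.4% beside 15.7%). The bradykinin receptor BDKRB2 rose from 1.99 ± 0.10 to 3.89 ± 0.11 CPM (SD, n = 2; log2 fold change 0.96, SE 0.17, adjusted p = 0.000183, edgeR). Its partner BDKRB1 had 31 and 33 reads in vehicle and 62 and 60 in Liq (0.75 and 0.88 CPM against 1.74 and 1.20 CPM). OPRL1, the nociceptin receptor, had 9 and 16 reads against 31 and 61. VIPR1, a receptor of vasoactive intestinal peptide, fell from 72 and 54 reads to 22 in each Liq sample (log2 fold change -1.63, SE 0.28, adjusted p = 0.0001188, edgeR). In CPM this was 1.75 and 1.44 against 0.62 and 0.44. BDKRB1 lost its call without either vehicle replicate, without Liq replicate 1, with loess offsets and with the DESeq2 Wald test.

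**Figure D4:**
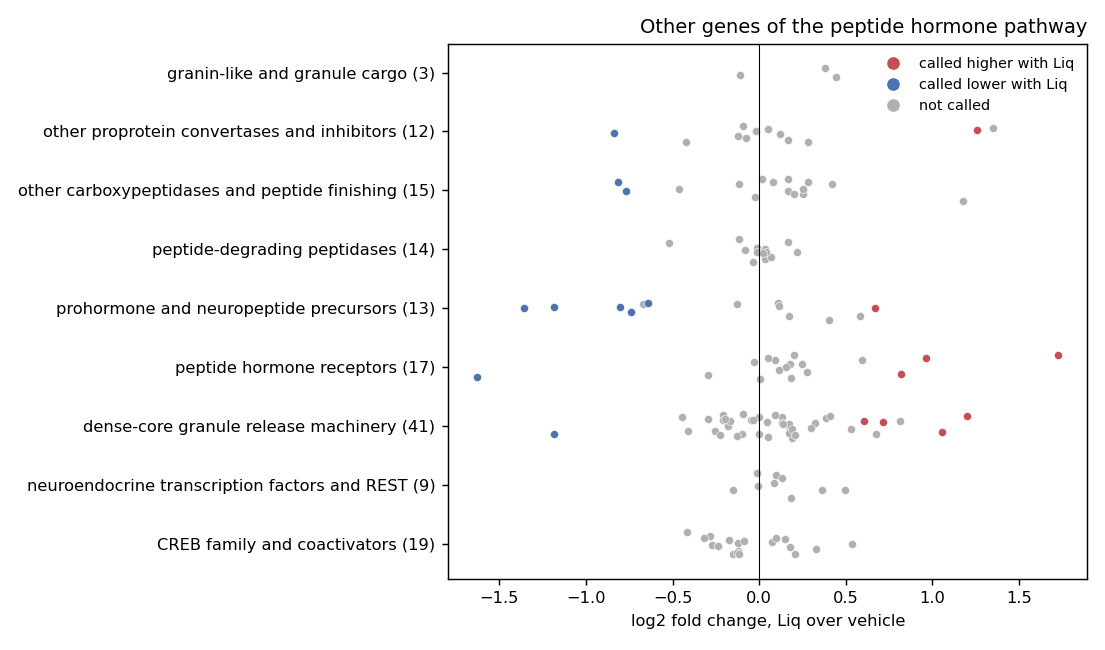
Log2 fold change of Liq over vehicle for the tested genes of 9 lists, with the number tested in parentheses. Each point is a gene, red where called higher, blue where called lower and grey where not called. Blue points gather in the list of prohormone and neuropeptide precursors (5 of 13), while the transcription factor, CREB and peptidase lists have grey points only.

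Regulators of neuroendocrine genes were not called at the 1.5-fold threshold. REST, the repressor that silences granin and other neuronal genes outside neurons, stood at 55.3 ± 2.2 CPM under vehicle against 54.7 ± 4.9 CPM under Liq (SD, n = 2; log2 fold change -0.01, SE 0.08). CREB1 had 85.5 ± 5.9 and 98.7 ± 7.9 CPM (SD, n = 2; log2 fold change 0.21, SE 0.08). Of 9 tested neuroendocrine transcription factors and REST partners, 0 were called by edgeR or DESeq2, with 1 at an unadjusted p-value under 0.05. Of 19 tested CREB family genes and coactivators, 0 were called by either tool, with 9 at an unadjusted p-value under 0.05. The share of all tested genes at that unadjusted limit was not counted. At an adjusted p-value under 0.05 with no fold threshold (edgeR), 2 of the 19 were higher and 5 lower, beside 12.6% and 11.3% of all tested genes. Their list summed to 1753 to 1781 CPM in vehicle and 1516 to 1577 CPM in Liq. In the list of granin-like proteins and granule cargo, 3 of 5 genes were tested and 0 were called by either tool. Without the fold threshold (adjusted p-value under 0.05, edgeR), 2 of the 3 were higher and 0 lower, beside the same 12.6% and 11.3%.

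Markers of neuroendocrine cells were mixed. Of 13 such genes, 6 had no read in any sample, among them INSM1, NEUROD1 and TH. Of the 5 tested, 1 rose and 0 fell (edgeR), beside 4.29% of all tested genes called higher and 2.16% called lower. That 1 was the adhesion molecule NCAM1, with 256 and 228 reads in vehicle and 399 and 564 in Liq. The summed level of the list, most of it UCHL1, was 707 to 743 CPM in vehicle and 784 to 801 CPM in Liq. Its part in the differences of SCG5 and SCG2 was not tested. Of 7 leukocyte and endothelial markers, 2 had no read, the T cell gene CD3E among them, PTPRC had at most 1 in a sample, and their sum, nearly all of it CDH5, was 50.9 to 53.4 CPM in vehicle and 44.8 to 48.5 CPM in Liq.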

How the data were processed

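RNA of ES2 cells was profiled in 4 samples, 2 treated with vehicle and 2 with Liq for 24 h. Groups and replicate numbers come from the sample titles, and the dose from the methods of the study. The authors aligned reads to hg19 with TopHat2 2.0.8b and counted them per gene with HTSeq, per the submitters' processing notes, and deposited raw counts that were neither normalized nor pooled. HTSeq leaves out reads that match several places, which lowers the counts of genes with close copies. The 5 closing rows of each table, which hold 44.4% to 45.9% of tallied reads, name no gene and were left out.

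The fit used edgeR 4.0.16 under R 4.3.3. After filterByExpr (minimum count 10, minimum total 15) and TMM scaling, 13546 genes were compared by glmQLFit and glmQLFTest, with no replicate block and Benjamini-Hochberg adjustment. The SE is the log2 fold change divided by the square root of F. CPM values are counts over TMM-scaled library sizes, and lengths are those of GENCODE canonical transcripts. An exact permutation test of 2 against 2 samples cannot give a p-value that passes 0.05, so tests rest on the spread shared across genes.

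The members and the gene lists were chosen with earlier results of these data known. Named genes are all members, up to 5 called genes with the largest change in each list (each with 10 or more counts in both samples of its higher group), and regulators, convertases, CPD, QPCT and estrogen receptors fixed by name. Some genes of the lists are counted but not reported here. Of those fixed by name, ESR1 had 22 and 17 counts in vehicle and 19 and 34 in Liq. Alternatives were other normalizations, filters and thresholds, DESeq2 1.42.0, a replicate block, and leaving out each sample. The fits were tested on simulated counts, with changes of 1 and 2 on the log2 scale placed in genes of higher counts. That test does not cover genes with few counts or changes near 1.5-fold.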

Additional observations from a re-analysis of the deposited data

How the results depend on the processing

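Over 11 alternative fits the log2 fold change was -2.38 to -2.21 for SCG5 and 0.61 to 0.95 for SCG2, and counts of members are descriptions, since the same contrast chose them. Other scalings moved the median log2 fold change of all genes by less than 0.1. Yet loess offsets gave 354 genes called higher and 394 lower in all (581 and 293 before). With them 3 members were called lower, namely SCG5, VGF and CHGB (1 before), and 0 precursors were called higher (1 before). The DESeq2 Wald test gave 339 higher in all, 0 precursors higher and 2 lower (1 and 5 before), and 1 release gene higher (4 before). With a fold of at least 2 there were 209 higher and 119 lower in all, 0 members, 0 precursors, 1 receptor and 2 release genes higher, and 0 convertase genes, 0 carboxypeptidase genes and 2 precursors lower. With no fold threshold there were 1712 higher and 1533 lower in all. The higher numbers were then 2 for members, 2 for granule cargo, 2 for convertases, 4 for carboxypeptidases, 7 for release genes and 2 for the CREB family, and the lower numbers were 2 for convertases, 1 for peptidases, 2 for receptors, 6 for release genes and 5 for the CREB family. An unadjusted p-value gave 2 convertases and 1 carboxypeptidase gene higher. Over the fits that left out 1 sample, 1 to 2 members were lower, 0 to 1 precursors higher and 2 to 6 lower, 2 to 5 release genes higher, 0 to 1 transcription factors higher, 0 to 1 peptidases lower, and 423 to 695 genes higher and 236 to 312 lower in all. The causes were not tested.

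The titles link same-numbered samples by a number only. Their deviations from the group means correlated at 0.0483. With 2 samples per group both pairs give this same value, so it cannot decide whether the samples were paired. With the number as a replicate block, 601 genes were higher and 297 lower (581 and 293 before), and 2 convertases were higher (1 before). SCG3 had 7 to 21 counts in a sample, too few to show a difference here, and CHGA and PCSK2 had 0.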
